A study of Mus musculus with 12 samples.

Results

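Prmt5, the gene that the study set out to delete, was followed through its 2 rows in the expression tables and its 9 rows in the splicing tables of mouse neural progenitor cells (NPC) and mouse embryonic fibroblasts (MEF). The 9 splicing rows describe a skipped exon in both cell types and a retained intron in NPC, each under 3 pair codes. Prmt5 was 1 gene of 2704 named in the 4 tables, and the only one present in all 4. Total RNA of 12 libraries was sequenced, in 4 groups of 3. NPC treated with 4-hydroxytamoxifen (4-OHT, 50 nM) were set against NPC given the same volume of ethanol, and MEF with 4-OHT against MEF with ethanol, all for 24 h before the cells were split. Every library, the ethanol ones included, came from E14.5 embryos of genotype Prmt5 F/FER on the strain background mixed C57BL/6 X 129S1/SvlmJ. NPC were cortical neurospheres at day 4, and MEF were at passage 1 and confluent. The labels name neither the promoter that drives the inducible recombinase nor the exon flanked by its target sites. No group was cells with 4-OHT but without the conditional allele, so 4-OHT and loss of Prmt5 cannot be told apart. Whether the replicates of a group came from different embryos or cultures is not in the labels, so a test over libraries measures the spread between these libraries, which may be technical.

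PRMT5 is an arginine methyltransferase that makes symmetric dimethylarginine. It works in a complex with the WD-repeat protein WDR77, and with the Sm-binding chaperone CLNS1A (pICln) it methylates the Sm proteins B, D1 and D3, which the SMN complex then loads onto small nuclear RNAs of the spliceosome. In cells with a conditional allele, tamoxifen lets a Cre recombinase fused to an estrogen receptor domain enter the nucleus, where it cuts out the DNA between its target sites. The transcript that remains can still be made and counted, so the level of the whole gene and the reads over single exons measure different things.

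Both events lie on the minus strand of chromosome 14. In mm9, the build of the files, the skipped exon is at 55132128 to 55132291 and has 164 bp, between an upstream exon of 50 bp at 55133434 to 55133483 and a downstream exon of 162 bp at 55130830 to 55130991. The retained intron is at 55135029 to 55135333 and has 305 bp, between exons of 119 and 86 bp. By the lengths of exons and introns, the first is exon 7 and the second intron 2 of the 17-exon coding transcript Prmt5-201 of GENCODE (GRCm38), a coding exon and an intron between coding exons. Among the 16 introns of this transcript, intron 2 is the 7th shortest, in a range of 84 to 1142 bp. GENCODE also lists a Prmt5 transcript of the retained-intron class, Prmt5-204, in which exon 2, intron 2 and exon 3 form a single block of 510 bases.

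**Figure D1:**
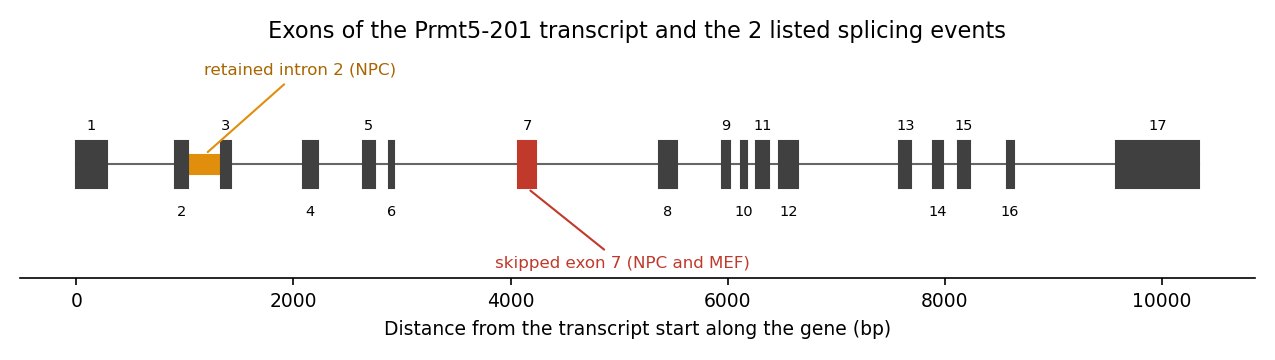
Exons (boxes, numbered) and introns (line) of the Prmt5-201 transcript along the distance from its start in bp. The skipped exon 7 of 164 bp is red and the retained intron 2 of 305 bp is orange.

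The sequences of the skipped exon and of the join that replaces it show which letters the reads of each form cover. They were taken from the GENCODE transcript (GRCm38, chromosome 14, minus strand), 5′ to 3′. In the inclusion form, exon 7 is in capitals between 15 bases of exon 6 and 15 bases of exon 8. In the exclusion form, the last 30 bases of exon 6 run straight into exon 8, and capitals mark the first stop codon in the reading frame that follows.
Inclusion form: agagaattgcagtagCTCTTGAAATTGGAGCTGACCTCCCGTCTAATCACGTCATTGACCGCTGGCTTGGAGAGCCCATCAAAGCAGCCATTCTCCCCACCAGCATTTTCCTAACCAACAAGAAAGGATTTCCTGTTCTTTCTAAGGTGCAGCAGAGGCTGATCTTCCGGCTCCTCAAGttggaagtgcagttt
Exclusion form: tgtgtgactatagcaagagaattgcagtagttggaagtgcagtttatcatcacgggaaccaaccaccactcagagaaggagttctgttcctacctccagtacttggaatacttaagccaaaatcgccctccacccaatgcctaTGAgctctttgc
Exon 7 carries bases of codons 205 to 259 of the 637 codons of the open reading frame. Its length leaves a remainder of 2 after division by 3, so the join of exons 6 and 8 changes the frame. In that frame 204 codons are kept, 38 new ones follow, and the stop falls in exon 8, 868 bases before the last exon junction, whereas the annotated stop is in exon 17. This describes the letters of the reference transcript and was not measured in the libraries.

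The ends of intron 2 and the first in-frame stop of the retained form are shown because the second event turns on them. Capitals mark the first GT and the last AG of the intron in the first pair of lines, and the stop codon in the third.
Intron 2, upstream end: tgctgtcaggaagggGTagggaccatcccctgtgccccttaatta
Intron 2, downstream end: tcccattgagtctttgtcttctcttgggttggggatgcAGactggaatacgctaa
Retained form: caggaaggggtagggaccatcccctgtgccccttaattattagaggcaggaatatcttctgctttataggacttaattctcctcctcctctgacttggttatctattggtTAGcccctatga
Read from the annotated start codon, a transcript that keeps intron 2 meets this stop after 110 codons, at base 102 of the intron. The intron has a GC content of 40.7%, against 52.6% in the spliced transcript. No other annotated gene overlaps Prmt5 on either strand in GENCODE.

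Prmt5 expression was lower with 4-OHT in both cell types. In NPC the authors' deposited table gives 4.92 RPKM (reads scaled to gene length and library size) with 4-OHT and 33.4 RPKM with ethanol, which leaves 14.7% of the ethanol level. In MEF the authors' deposited table gives 3.76 RPKM with 4-OHT and 21.0 RPKM with ethanol, which leaves 18.0%. As log2 fold changes, the authors' deposited table gives -2.76 for NPC and -2.48 for MEF. Cuffdiff, the authors' test, lists p as 0 in NPC and as 2.52e-10 in MEF in the authors' deposited table. With every gene name of the annotation counted as tested, the Benjamini-Hochberg adjusted Cuffdiff p in MEF is at most 1.39e-05, and Prmt5 is the single MEF gene under 0.05 by this bound (0.901% of the 111 listed). Each arm has a single value, so no spread between libraries can be given for these levels, and the difference between the cell types was not tested. The tables of the cell types were normalized separately, so the ethanol levels of NPC and MEF are given side by side and not compared. From these RPKM values alone, fewer cells with an intact allele and less RNA per cell cannot be told apart. Of the reads over the skipped exon event with 4-OHT, 2 of 77 in NPC and 0 of 52 in MEF included the exon. Which cells the remaining RNA came from was not tested.

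The place of Prmt5 in each list depended on the level of the genes around it. Lower genes make up 43.4% of those listed in NPC and 49.5% of those listed in MEF. Among the 55 lower genes in MEF, Prmt5 had the largest fall. Among the 1049 lower genes in NPC it had rank 3, after Hist1h2ag and Vmn2r18, named after their values were seen. Those genes are listed at 0.0196 RPKM with 4-OHT and 0.374 RPKM with ethanol, and at 0.00694 RPKM with 4-OHT and 0.0551 RPKM with ethanol, in the authors' deposited table. With at least 1 RPKM required in the higher arm Prmt5 came first of 918 lower genes. The next falls in NPC were those of Pnpla3, a lipid droplet enzyme gene, Spata24, and Hes5, a Notch effector, for which the authors' deposited table gives log2 values of -2.05, -1.85 and -1.73. In MEF, with the same 1 RPKM required, the next were U90926, the TNF receptor adaptor gene Traf1 and Rasl12, for which the authors' deposited table gives log2 values of -1.68, -1.45 and -1.36. The median log2 fold change of the lower genes was -0.77 in NPC and -0.88 in MEF.

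**Figure D2:**
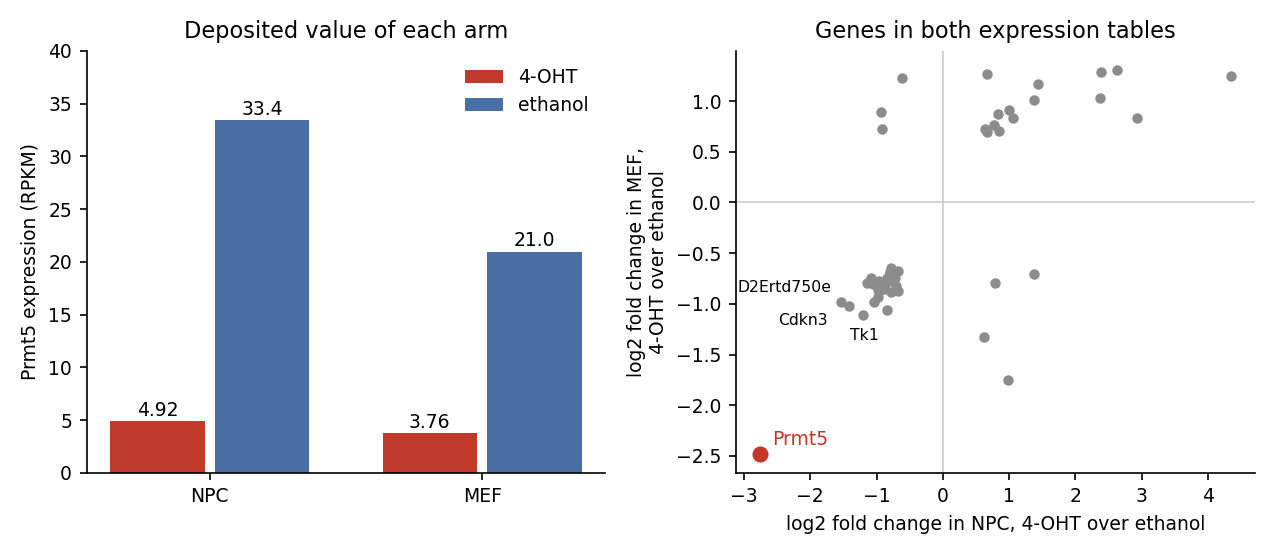
Left, deposited Prmt5 expression in RPKM with 4-OHT (red) and ethanol (blue), 1 value per arm and no error. Right, deposited log2 fold changes of 4-OHT over ethanol in NPC (x) and MEF (y) for the 49 genes in both expression tables, where Prmt5, at -2.76 and -2.48, lies apart from the other 48.

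No other gene in both expression tables had falls of the size of those of Prmt5. Likeness was measured as the distance between the pairs of log2 fold changes in NPC and MEF, over the 48 other genes in both tables. The closest was D2Ertd750e, at a distance of 1.94 log2 units, with NPC and MEF log2 values of -1.53 and -0.98 by the authors' deposited table. Next came Cdkn3, a phosphatase gene of the cell cycle, at a distance of 1.98, and the thymidine kinase gene Tk1, at 2.07. Mybl2, a transcription factor gene of dividing cells, and Pold1, a DNA polymerase delta subunit gene, followed at 2.28 and 2.34. Of the 26 other genes lower in both cell types, the most negative log2 values by the authors' deposited table were -1.53 for NPC and -1.11 for MEF. By the correlation of log2 RPKM over the 4 arm values, 2 of these 5 genes, Cdkn3 and Tk1, stayed among the closest 5.

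Exon 7 was nearly absent from the Prmt5 reads of every library with 4-OHT. MATS, the authors' splicing tool, counts reads for the inclusion form and for the exclusion form of an event, and gives an inclusion level, the share of the inclusion form after correction for its greater length. In NPC with 4-OHT the inclusion reads numbered 1, 1 and 0 under pair codes 24, 26 and 28, against 437, 535 and 307 in the ethanol libraries of the same codes. The exclusion reads, which join exon 6 to exon 8, numbered 12, 35 and 28 with 4-OHT and 3, 17 and 13 with ethanol. The groups did not overlap in inclusion reads, while the lowest count of exclusion reads with 4-OHT lay within the ethanol range. In MEF the inclusion reads numbered 0 in each of the 3 libraries with 4-OHT, against 412, 185 and 259 with ethanol under codes 159, 161 and 163. The exclusion reads in MEF were 22, 17 and 13 with 4-OHT and 0 in each ethanol library. Thus in MEF the forms changed places between the groups without a read of the other form in any library.

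The inclusion level in NPC was 0.016, 0.005 and 0 with 4-OHT, against 0.966, 0.859 and 0.820 with ethanol. It averaged 0.007 ± 0.0082 with 4-OHT and 0.882 ± 0.076 with ethanol (SD, n = 3 each), a difference of -0.87. In MEF it was 0 in every library with 4-OHT and 1 in every ethanol library. The groups did not overlap in either cell type, and the two-sided exact permutation test gave p = 0.1 in each, the smallest that 3 against 3 libraries allow (Benjamini-Hochberg adjusted p = 0.107 over 15 tests). Each pair was listed for a difference in level (threshold 0.2), so the test used values already selected for that difference and adds little. Of the skipped exons listed, 62.2% in NPC and 78.1% in MEF had a lower mean level with 4-OHT. Among events listed under all 3 codes, exon 7 had the largest absolute change of 59 in NPC and of 9 in MEF. In NPC the largest changes in other genes were in Setd8, a histone methyltransferase gene, Fancg, a Fanconi anemia gene, and Clk4, a kinase gene of splicing factors, with mean differences in level of 0.72, 0.72 and 0.52. In MEF they were in Nono, an RNA-binding protein gene, Fxc1 and Mettl17, with 0.97, 0.43 and -0.36.

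**Figure D3:**
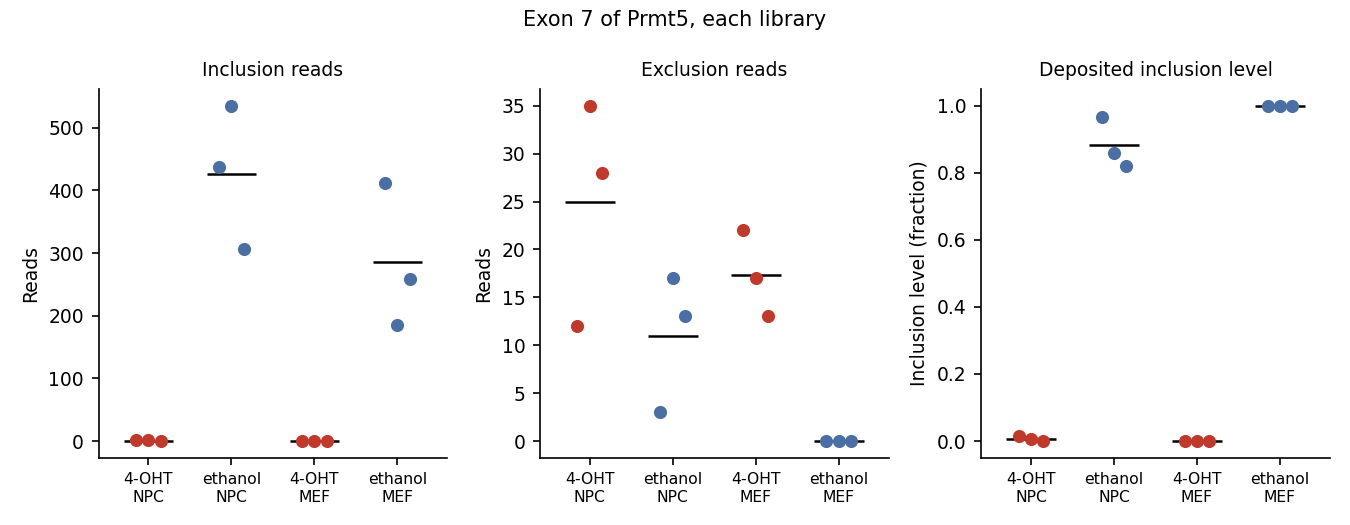
Inclusion reads, exclusion reads and deposited inclusion level (fraction) of Prmt5 exon 7 in each library (points) with the mean (line), 4-OHT red and ethanol blue. Inclusion reads were 0 or 1 in all 6 libraries with 4-OHT and 185 to 535 in the ethanol libraries, and exclusion reads occurred in the ethanol libraries of NPC but not of MEF.

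The depth over exon 7 sets what share of inclusion reads could go unseen. Summed over the 3 libraries with 4-OHT, 2 of 77 reads in NPC were inclusion reads, and 0 of 52 in MEF, which allows a share of inclusion reads of up to 5.77%. Single libraries with 4-OHT held only 13 to 36 reads, so for a library with 0 inclusion reads the allowed share ran up to 23.1%. Both are shares of reads. After correction for the greater length of the inclusion form, the allowed share of intact transcript is smaller. These limits, and the 95% exact (Clopper-Pearson) intervals below, cover counting error only.

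The ethanol libraries of NPC also held the exclusion form. It made up 0.682% of the event's reads under code 24 (interval 0.141% to 1.98%), 3.08% under code 26 (1.804% to 4.885%) and 4.06% under code 28 (2.18% to 6.85%). These are shares of reads. After correction for the greater length of the inclusion form, the exclusion form has a larger share, with deposited inclusion levels of 0.966, 0.859 and 0.820. In MEF the ethanol libraries held 0 exclusion reads of 856 in all, which allows a share of up to 0.350%. The interval of each NPC ethanol library under codes 26 and 28 lay above that limit. The ethanol inclusion level averaged 0.882 ± 0.076 in NPC and 1 in MEF (n = 3 each), with no overlap and an exact permutation p of 0.1, the smallest possible (adjusted p = 0.2 over 4 comparisons of the cell types). The change in level with 4-OHT was -0.87 ± 0.07 in NPC and -1 in MEF, also with an exact permutation p of 0.1 and an adjusted p of 0.2. In the libraries with 4-OHT the levels, 0.007 in NPC and 0 in MEF, overlapped (exact permutation p = 0.4). The source of the exclusion reads in the ethanol libraries was not tested.

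Reads over the exon 7 event fell less once the length of the lost exon was taken into account. An inclusion read can fall anywhere over the exon, and the deposited levels imply that 5.17 inclusion reads count as much as 1 exclusion read. For a view with replicates, length-adjusted reads were set against 1000 reads over the other events listed under all codes, 57 in NPC and 8 in MEF. These events are themselves listed as changed, so the scale is relative to them. In NPC they include retained introns with more reads with 4-OHT, such as that of Tmem44 (14268 intron reads with 4-OHT, 3530 with ethanol). Such reads in the denominator lower every value with 4-OHT on this scale. In NPC the values were 0.902, 1.06 and 1.21 with 4-OHT and 7.97, 5.10 and 4.81 with ethanol. The mean with 4-OHT was 17.8% of the ethanol mean, against 3.86% for the reads without the length adjustment and beside 14.7% for the RPKM of the whole gene. The exclusion reads alone were 0.888, 1.06 and 1.21 per 1000 with 4-OHT and 0.273, 0.719 and 0.863 with ethanol in NPC, higher with 4-OHT and without overlap on this scale (exact permutation p = 0.1, the smallest possible). In MEF the length-adjusted reads per 1000 were 19.2, 22.4 and 25.8 with 4-OHT and 76.9, 47.6 and 109 with ethanol. The mean with 4-OHT was 28.8% of the ethanol mean, against 5.57% without the length adjustment and beside 18.0% for the RPKM of the whole gene. In length-adjusted reads the groups were apart in both cell types (exact permutation p = 0.1 each, the smallest possible, adjusted p = 0.107). The MEF scale rests on only 458 to 1148 reads per library. The share left, taken within pairs, averaged 19.1 ± 7.12% in NPC and 31.9 ± 13.2% in MEF (SD, n = 3 each), a difference (NPC minus MEF) of -12.7 percentage points, smaller in size than the MEF spread (exact permutation p = 0.3).

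Intron 2 gave a different picture from exon 7, in NPC. Its deposited inclusion level was 0.384, 0.442 and 0.468 with 4-OHT under codes 24, 26 and 28, against 0.034, 0.037 and 0.050 with ethanol. It averaged 0.431 ± 0.043 with 4-OHT and 0.0403 ± 0.0085 with ethanol (SD, n = 3 each), with no overlap (exact permutation p = 0.1, the smallest possible, adjusted p = 0.107). Here too each pair was listed for a difference in level, so the lack of overlap was nearly fixed by the listing. The MATS p-values within pairs in the authors' deposited table are 7.68e-07, 1.28e-14 and 4.41e-10. Of the retained introns listed in NPC, 96.3% had a higher mean level with 4-OHT, so the direction is that of nearly the whole class. Among the 27 retained introns listed under all 3 codes, that of Prmt5 ranked 7th by the size of its change. For MEF the intron has no listing, so nothing can be said of its level there.

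The reads behind this level were taken for each form. Reads of the retained form numbered 34, 79 and 64 with 4-OHT and 30, 47 and 33 with ethanol. Reads of the spliced form, which join exon 2 to exon 3, numbered 6, 11 and 8 with 4-OHT and 95, 136 and 69 with ethanol. Per 1000 reads over the other events, intron reads were 2.51, 2.39 and 2.77 with 4-OHT and 2.73, 1.99 and 2.19 with ethanol. These groups overlapped, and the difference in means, 2.56 ± 0.195 with 4-OHT and 2.30 ± 0.384 with ethanol (SD, n = 3 each), was below the ethanol spread (exact permutation p = 0.4). Spliced reads were 0.444, 0.333 and 0.346 per 1000 with 4-OHT and 8.65, 5.75 and 4.58 with ethanol. They fell to 5.92% of the ethanol mean, and the groups did not overlap (exact permutation p = 0.1, adjusted p = 0.107). On this scale the higher inclusion level of intron 2 thus went with fewer spliced reads, while a change in its intron reads was not detectable. The scale itself lowers values with 4-OHT, because it holds the retained introns of other genes. Before scaling, the intron reads were higher with 4-OHT under each code.

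**Figure D4:**
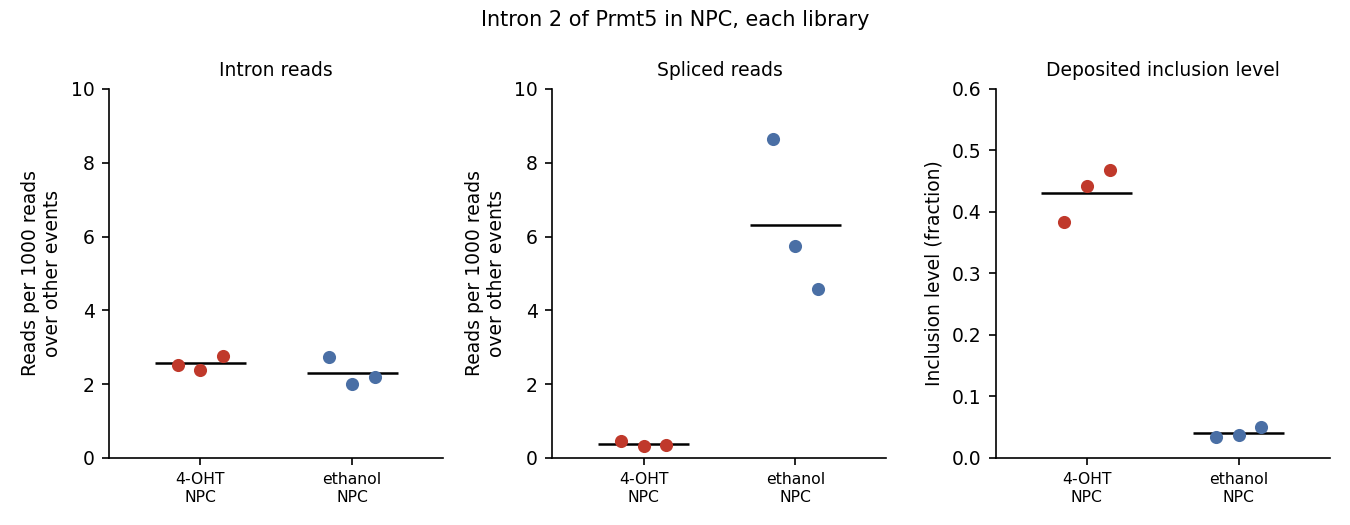
Reads over Prmt5 intron 2 (left) and over the exon 2 to exon 3 junction (middle), each per 1000 reads over other listed events, and the deposited inclusion level (right, fraction), in each NPC library (points) with the mean (line), 4-OHT red and ethanol blue. Intron reads lie between 1.99 and 2.77 in both groups, spliced reads at 0.333 to 0.444 with 4-OHT and 4.58 to 8.65 with ethanol.

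Set beside the other retained introns, Prmt5 lay at the edge. Of the 27 introns under all codes, 26 had a higher level with 4-OHT. On the same relative scale, each of the 25 in other genes had more intron reads and fewer spliced reads with 4-OHT, with median log2 ratios of 1.12 and -1.31. The intron reads of these events are part of the scale, which lowers the values with 4-OHT. Before scaling, the spliced reads of Ampd2 were higher with 4-OHT, 131 against 108 with ethanol. For Prmt5 these ratios were 0.15 and -4.08. Its fall in spliced reads was the largest of the 27, followed by that of Fancg, and its rise in intron reads was smaller than in all 25 others. These introns were listed for a change in level, and the ratios were compared after their values were seen, so the ranks are a description without a test.

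**Figure D5:**
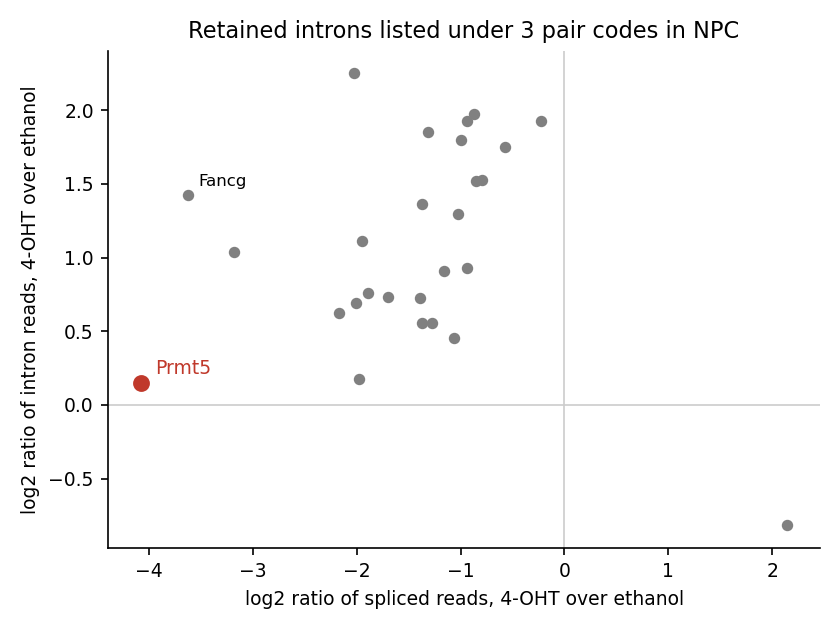
Retained introns listed under 3 pair codes in NPC (27 points), by the log2 ratio of 4-OHT over ethanol for spliced reads (x) and intron reads (y), per 1000 reads over other listed events. Prmt5 (red) has the lowest ratio of spliced reads, -4.08, with a ratio of intron reads of 0.15.

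Within each NPC library, the 5′ part of the transcript could be set against the region of exon 7, which needs no scale from other genes. The reads over the junction of exons 2 and 3, divided by the length-adjusted reads of the exon 7 event, came to 0.492, 0.313 and 0.286 with 4-OHT and 1.08, 1.13 and 0.953 with ethanol. With ethanol the junction reads were thus close in number to the length-adjusted reads of the exon 7 event. With 4-OHT they were fewer in every library. Before the adjustment the exon 7 event had 440, 552 and 320 reads with ethanol, against 95, 136 and 69 over the junction. The adjustment acts mostly on the ethanol libraries, because nearly all reads of the event with 4-OHT were exclusion reads, which it leaves unchanged. The ratio averaged 0.363 ± 0.112 with 4-OHT and 1.06 ± 0.0913 with ethanol (SD, n = 3 each; exact permutation p = 0.1, the smallest possible). With the length-adjusted intron reads added to the spliced reads, it was 0.632 ± 0.145 with 4-OHT and 1.10 ± 0.0865 with ethanol, still without overlap (exact permutation p = 0.1). The difference between the groups was -0.69 for the spliced reads and -0.47 with the intron reads added. The length-adjusted intron reads alone, over the same region, averaged 0.269 ± 0.0334 with 4-OHT and 0.0436 ± 0.00626 with ethanol (SD, n = 3 each). These groups did not overlap (exact permutation p = 0.1, the smallest possible). Intron reads thus rose relative to the exon 7 region, though not detectably relative to the other events. The number of spliced reads with 4-OHT, 25 over 3 libraries, limits the precision of these ratios. Both events were listed for a difference in level in each pair, so the ratios use selected values and their tests add little.

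Of 69 other genes around PRMT5 function 14 were listed in NPC (20.3%) and 0 in MEF. The shares of protein-coding gene names that are listed at all, 9.71% in NPC and 0.47% in MEF, are the background. This background counts every such name, expressed in these cells or not. It is not matched to the lists for expression, and the difference was not tested. None of the lists below had a listed member in the MEF expression table, where Prmt5 stood alone. Of 9 other arginine methyltransferase names 1 was listed in NPC: Prmt3, whose enzyme methylates a ribosomal protein, with 13.9 RPKM with 4-OHT and 21.1 RPKM with ethanol in the authors' deposited table. Prmt2 had a listed alternative 3′ splice site in NPC, under 2 of the 3 codes, with a mean difference in level of 0.33.

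Of 9 partner genes 2 were listed in NPC, in opposite directions. The cyclin gene Ccnd1 had 549 RPKM with 4-OHT and 340 RPKM with ethanol, and its kinase gene Cdk4 had 253 RPKM with 4-OHT and 389 RPKM with ethanol, in the authors' deposited table. The adjusted Cuffdiff p of Ccnd1 is at most 0.103 by the bound over all gene names, that of Cdk4 at most 0.00174. The obligate partner Wdr77, Clns1a, and the adaptors Riok1 and Coprs were not listed in either cell type. Of 21 genes for proteins reported as PRMT5 substrates, 5 were listed in NPC, 4 of them lower, beside 43.4% lower among all genes listed. Fen1, a flap endonuclease gene of DNA replication, Npm1, a nucleolar chaperone gene, E2f1, a cell cycle transcription factor gene, and Srebf1, a regulator gene of lipid synthesis, were lower, at log2 values of -0.78, -0.66, -0.66 and -0.62 by the authors' deposited table. Klf4, a transcription factor gene, was the higher member, with 1.23 RPKM with 4-OHT and 0.452 RPKM with ethanol in the authors' deposited table. The Sm protein genes Snrpb, Snrpd1 and Snrpd3, whose products PRMT5 methylates, were not listed.

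Of 11 genes of the SMN complex and its cofactors, Gemin6, a subunit gene, was the single one listed, with 7.51 RPKM with 4-OHT and 16.5 RPKM with ethanol in the authors' deposited table. Of 10 genes with Tudor domains or related readers of methylarginine, the spliceosome gene Smndc1 was listed, with 33.3 RPKM with 4-OHT and 20.4 RPKM with ethanol in the authors' deposited table. Of 9 genes of methyl donor and polyamine supply and arginine demethylation, 4 were listed in NPC and all 4 were lower. Lower genes are 43.4% of all those listed in NPC, and the difference was not tested. Ahcy, which clears the S-adenosylhomocysteine that methyltransferases leave behind, had 22.0 RPKM with 4-OHT and 38.6 RPKM with ethanol in the authors' deposited table. The polyamine synthase genes Srm and Sms and the methylthioadenosine phosphorylase gene Mtap were lower, at log2 values of -0.70, -0.70 and -0.67 by the authors' deposited table. Mat2a, which makes the methyl donor, was not listed. All listed members other than Ccnd1 have an adjusted p under 0.05 by the bound, as do 73.8% of all genes listed in NPC.

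Within 250 kb of Prmt5 GENCODE names 31 other genes, 20 of them protein-coding. In MEF none of them was listed, and none had a listed splicing event in either cell type. In NPC 4 were listed, all protein-coding, or 20.0% of the 20 against 9.71% of all protein-coding names, a difference that was not tested. Here too the background was not matched for expression. Haus4, a spindle subunit gene, had 8.46 RPKM with 4-OHT and 12.9 RPKM with ethanol in the authors' deposited table. Cdh24, a cadherin gene, and Rem2, a small GTPase gene, were lower, at log2 values of -0.80 and -0.74 by the authors' deposited table. Abhd4, a lipase gene, was higher, with 115 RPKM with 4-OHT and 48.8 RPKM with ethanol in the authors' deposited table.

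The labelled cell types could be checked only in part, because the tables list changed genes alone. Of 10 neural progenitor markers Hes5 was listed in NPC, and of 10 fibroblast markers none was listed in either cell type. Some markers of other cell types were listed in NPC, where 9.71% of protein-coding names are listed and 1367 of the 2416 listed genes are higher. Of 3 astrocyte markers all 3 were listed as higher. By the authors' deposited table they ran from Gfap, at 1.10 RPKM with 4-OHT and 0.221 RPKM with ethanol, to Aldh1l1. Aldh1l1 had 118 RPKM with 4-OHT and already 67.7 RPKM with ethanol in the authors' deposited table. Of 4 neuron markers Tubb3 was listed, with 9.59 RPKM with 4-OHT and 4.81 RPKM with ethanol in the authors' deposited table. Of 3 blood and vessel markers none was listed. The part of a changed cell makeup in the values of Prmt5 was not tested.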

How the data were processed

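RNA-seq libraries were made with the TruSeq RNA kit v2, per the labels' protocols. Base calling with CASAVA 1.8, alignment tools TopHat2 2.03 and Bowtie2 2.0.0.6, build mm9 and Cuffdiff 2.02 are named in the submitters' processing notes. The authors deposited 1 RPKM value per arm, a log2 fold change and an unadjusted p-value per listed gene, per the file headers. For splicing events they deposited the read count of each form, the inclusion level as a fraction, and its difference as a score (ethanol minus 4-OHT, turned round here) for 1 library per arm under a pair code. Listed genes have p under 0.05 and over 1.5-fold change. For splicing events the listing threshold is a difference in inclusion level of 0.2. The version of MATS and library totals: not given in the sources used here.

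Members and lists were chosen with earlier results of these data known. Named genes were Prmt5, the 5 closest genes, the next 3 falls, the 3 largest other events, and listed members of the lists and neighbours. The adjusted p is an upper bound that counts 55341 GENCODE gene names as tested, and background shares use 21924 protein-coding names. Levels and reads per library were compared with two-sided exact permutation tests (Python 3.11.15, numpy 2.4.6, scipy 1.17.1), tested on simulated data. Pair codes match no label. Libraries with the same code correlated in their deviations from the arm mean at 0.123 to 0.177 over 57 NPC events and 0.232 to 0.665 over 8 MEF events, Prmt5 left out. Between different codes the correlations were lower, at -0.222 to 0.0999 in NPC and -0.478 to 0.125 in MEF. Listing for a difference in each pair favours this, and its part was not tested. Because the codes match no label, the tests had no block, and a paired test was an alternative. Sequences came from GENCODE M21 transcripts, matched by exon and intron lengths, since its build differs from that of the files.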

Additional observations from a re-analysis of the deposited data

How the results depend on the processing

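The direction of each Prmt5 change held under every alternative run, except for the exclusion reads of exon 7 taken alone per 1000 other-event reads. In NPC these were higher with 4-OHT (log2 ratio 0.77, exact permutation p = 0.1), while all reads of the event were lower (-4.70). In MEF they were also higher, with means of 22.5 with 4-OHT and 0 with ethanol, which leaves no log2 ratio. All reads of the event in MEF were lower (log2 ratio -4.17). A pseudocount of 0.1 or 1 RPKM gave log2 fold changes of -2.74 and -2.54 in NPC and of -2.45 and -2.20 in MEF. Prmt5 had rank 1 among the NPC falls with at least 1 or 5 RPKM required, and 2 of the 5 most similar genes were kept by correlation. With the replicate block, an exact sign-flip test over 3 pairs, whose smallest p is 0.25, gave mean differences in level of -0.87 for exon 7 and 0.39 for intron 2 in NPC and -1 for exon 7 in MEF, each with p = 0.25 (exact), and it changed no call. Leaving out each pair in turn left exon 7 differences of -0.90 to -0.84 and intron 2 differences of 0.38 to 0.41 in NPC. No test over 3 against 3 libraries can pass 0.05, so these p-values say nothing about stability. Length-adjusted and within-library ratios, and the intron reads of intron 2 taken alone, were chosen after seeing the data.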
